A study of Mus musculus with 10 samples.

Results

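The regions described here are 735 ATAC-seq peaks that were less accessible in lung regulatory T cells (Tregs) without Vps34 while their mean spleen level was about the same in both genotypes. They were selected on their measured values. On autosomes 1 to 19, with counts scaled to CPM (counts per 1000000 counts of a library), both Vps34-deficient lung libraries had to lie below both lung controls, the lung control mean had to be at least 3 CPM and at least 2 times the deficient mean, and the spleen ratio of deficient to control mean had to lie between 0.8 and its reciprocal. They were 735 of the 3061 autosomal peaks that met the lung conditions (24.01%) and of 94486 autosomal peaks in all (0.778%). Of the other lung-closing peaks, 1326 had a spleen ratio from 0.5 to 0.8, 930 one below 0.5 and 70 one above the upper limit. Because the rule used the genotype contrast in both tissues, fold changes and calls for these contrasts describe how the peaks were chosen and are not evidence for them.

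The study asked how Vps34, the lipid kinase encoded by Pik3c3, shapes Treg chromatin. ATAC-seq, in which the transposase Tn5 inserts adaptors into open DNA, was run on CD4+Foxp3-YFP+TCRb+ Tregs that had been sorted from the spleen and the lung at an age of 10 days. Vps34-deficient mice were Foxp3Cre Pik3c3 fl/fl and controls were Foxp3Cre Pik3c3 +/+ or +/fl, so all 4 groups carried the Cre, which is expressed from Foxp3 and acts in cells of this lineage. There were 2 control and 4 deficient spleen libraries and 2 of each in lung, and the study's methods count mice in the same numbers per group, except that the spleen genotypes are the other way round. The labels were followed. No label ties a library to a mouse, so errors are given as the spread between libraries. In bulk Tregs, fewer cells of a state with an open site and less opening per cell cannot be told apart.

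Vps34 makes phosphatidylinositol 3-phosphate on endosomal and autophagic membranes and thereby serves vesicle traffic and autophagy. Tregs that settle in lung and other non-lymphoid organs take on an effector program that includes the interleukin 33 receptor ST2, encoded by Il1rl1, and the factor Gata3, and that depends on antigen receptor and co-stimulatory signals. These signals reach chromatin through AP-1 factors (Jun, Fos, Batf) and NF-kB, and many Treg enhancers also bind Runx proteins.

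To show the regions themselves, the central 200 bases of 6 peaks with the AP-1 letters TGANTCA are given first. They are the first in order of the lung p-value among peaks taken by rank or from gene lists that hold the letters within these central 200 bases, with no annotated exon there. All are GRCm38, plus strand, 5′ to 3′, with the AP-1 letters in capitals (N is any base, and the letters read the same on both strands apart from N), and each is named by the gene with the nearest transcription start.
Mettl24, chr10:40713143-40713342, intron: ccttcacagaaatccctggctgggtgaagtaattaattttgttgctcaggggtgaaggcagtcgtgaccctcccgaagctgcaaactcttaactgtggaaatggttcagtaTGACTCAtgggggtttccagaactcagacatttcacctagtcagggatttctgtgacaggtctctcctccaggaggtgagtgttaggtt
Col16a1, chr4:130045723-130045922, intergenic: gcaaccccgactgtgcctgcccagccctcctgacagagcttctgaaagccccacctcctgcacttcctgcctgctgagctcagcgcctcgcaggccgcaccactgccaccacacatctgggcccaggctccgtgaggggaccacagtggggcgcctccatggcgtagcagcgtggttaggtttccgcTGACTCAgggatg
St3gal1, chr15:67130066-67130265, intron: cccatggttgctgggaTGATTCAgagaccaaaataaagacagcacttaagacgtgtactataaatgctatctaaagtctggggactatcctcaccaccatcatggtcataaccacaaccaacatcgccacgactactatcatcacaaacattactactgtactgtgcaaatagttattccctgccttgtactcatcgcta
Jun, chr4:95188185-95188384, intergenic: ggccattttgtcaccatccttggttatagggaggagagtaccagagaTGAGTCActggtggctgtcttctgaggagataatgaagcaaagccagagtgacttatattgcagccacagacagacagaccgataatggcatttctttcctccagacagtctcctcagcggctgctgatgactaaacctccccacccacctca
Itgav, chr2:83695463-83695662, intergenic: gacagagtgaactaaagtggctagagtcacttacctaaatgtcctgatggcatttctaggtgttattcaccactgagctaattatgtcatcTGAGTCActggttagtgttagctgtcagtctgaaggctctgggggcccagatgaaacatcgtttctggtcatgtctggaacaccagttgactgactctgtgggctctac
Atf3, chr1:191190020-191190219, intron: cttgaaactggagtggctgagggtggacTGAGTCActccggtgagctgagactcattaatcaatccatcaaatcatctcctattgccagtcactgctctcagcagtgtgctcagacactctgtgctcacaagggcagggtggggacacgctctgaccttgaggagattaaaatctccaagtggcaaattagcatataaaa
The 2 highest-ranked peaks without AP-1 letters in their central 300 bases follow in lower case throughout.
Kcnh5, chr12:74895056-74895255, intergenic: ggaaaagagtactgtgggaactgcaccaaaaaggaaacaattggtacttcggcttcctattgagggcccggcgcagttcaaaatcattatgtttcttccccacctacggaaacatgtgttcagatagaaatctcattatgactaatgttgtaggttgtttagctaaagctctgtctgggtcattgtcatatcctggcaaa
Gm17509, chr13:117260837-117261036, intron: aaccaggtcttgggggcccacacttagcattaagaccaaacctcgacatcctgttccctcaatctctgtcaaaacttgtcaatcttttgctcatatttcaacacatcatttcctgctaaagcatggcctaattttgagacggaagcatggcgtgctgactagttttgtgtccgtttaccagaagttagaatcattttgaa
The last 3 hold GGANTTTCC, the letters of an NF-kB site, in capitals. They are the first 3 by lung p-value among peaks with these letters in the central 200 bases, and this set was chosen after the motif counts given further on were seen.
Rap2a, chr14:120453627-120453826, intergenic: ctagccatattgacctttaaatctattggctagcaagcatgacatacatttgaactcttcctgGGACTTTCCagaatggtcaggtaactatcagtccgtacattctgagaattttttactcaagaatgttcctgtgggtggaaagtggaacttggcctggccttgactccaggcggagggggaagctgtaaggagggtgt
Synpo2, chr3:123179125-123179324, intron: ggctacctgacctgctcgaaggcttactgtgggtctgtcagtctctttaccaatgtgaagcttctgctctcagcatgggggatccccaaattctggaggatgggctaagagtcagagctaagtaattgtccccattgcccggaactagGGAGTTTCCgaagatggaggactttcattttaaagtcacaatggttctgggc
Stat4, chr1:52040649-52040848, intron: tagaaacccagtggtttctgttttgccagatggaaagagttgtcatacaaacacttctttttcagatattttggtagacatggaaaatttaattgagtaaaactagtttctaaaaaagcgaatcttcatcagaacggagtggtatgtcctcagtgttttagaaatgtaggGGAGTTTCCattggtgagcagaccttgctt
These 11 regions lie in introns or between genes, from 2.02 kb to 282.2 kb from the nearest start. A match of letters says nothing about which factor, if any, was bound.

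Library totals ran from 9405823 to 22439699 counts, and at the 735 peaks the lower of the 2 lung controls held 12 to 374 counts with a median of 44. Most counts were even (91.4% to 96.4% of nonzero values), and since reads were paired, fewer independent fragments may stand behind them. The 2 lung controls differed more from each other than any other replicate pair, with a chi-square of 5.19 per degree of freedom against 2.75 to 3.81 in the other 8 pairs, and lung control 2 lay above lung control 1 at 536 of the 735 peaks. Promoters of the Treg markers Cd4, Cd3e, Foxp3, Il2ra, Ctla4 and Ikzf2 were open in all libraries, with summed levels of 245 and 268 CPM in spleen controls, 231 to 274 CPM in deficient spleen, 205 and 257 CPM in lung controls and 226 and 195 CPM in deficient lung. Of 8 myeloid markers, 4 had a promoter peak (Spi1, Cd14, Itgam and Mpo) and Csf1r, Lyz2, Fcgr3 and Cd68 had none. Their sum was 27.2 and 30.4 CPM in lung controls and 17.1 and 19.5 CPM in deficient lung. In spleen it was 23.8 and 25.4 CPM in controls and 16.4 to 22.3 CPM in deficient libraries. The sum was thus lower without Vps34 in both tissues, and its part in the results was not tested. The sum for CD8 and NK cells, with 4 of 7 markers in a promoter peak and none for Klrb1c, Ncr1 or Klrk1, was 36.8 and 32.9 CPM in lung controls and 43.4 and 50.2 CPM in deficient lung, against 48.1 and 39.8 CPM in spleen controls and 37.5 to 51.3 CPM in deficient spleen. Its part was not tested either. Sums for B cells (3 of 7 markers, with Cd79a, Ms4a1 and Blk among those without), lung epithelium (4 of 7, none for Sftpc, Krt8 or Scgb1a1) and endothelium (4 of 6, none for Tek or Tie1) overlapped between the lung genotypes, at 19.1 and 23.6 against 20.4 and 22.3 CPM, 26.8 and 32.2 against 28.3 and 28.8 CPM, and 38.3 and 48.9 against 39.6 and 46.04 CPM. In spleen the B cell sum was 17.7 and 17.9 CPM in controls and 19.8 to 23.3 CPM in deficient libraries. For lung epithelium it was 36.99 and 35.1 against 29.9 to 34.9 CPM, so neither sum overlapped between the spleen genotypes. For endothelium it was 44.3 and 46.1 against 43.2 to 48.5 CPM.

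Across the 735 peaks the lung controls stood above spleen and the deficient lung libraries below it. In control spleen the median peak had 3.57 and 3.44 CPM, and in deficient spleen 3.34, 3.24, 3.34 and 3.45 CPM. It had 4.68 and 5.64 CPM in the lung controls and 2.27 and 2.12 CPM in the deficient lung libraries. Summed over the peaks, the level was 5283 ± 816 CPM in lung controls (SD, n = 2) and 2218 ± 84.9 CPM in deficient lung (n = 2), beside 3459 ± 0.792 CPM in spleen controls (n = 2) and 3208 ± 124 CPM in deficient spleen (n = 4). The lung fold of control over deficient ran from 2.0001 to 16.5 with a median of 2.32. It reached 3 at 119 peaks and 4 at 35. The spleen ratio had a median of 0.926, and at 40 peaks all 4 deficient spleen libraries lay below both controls (as at 11.3% of all autosomal peaks), while at 10 they lay above (as at 14.9% of all). The rule bounds the spleen ratio, so nothing is read from these counts.

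**Figure D1:**
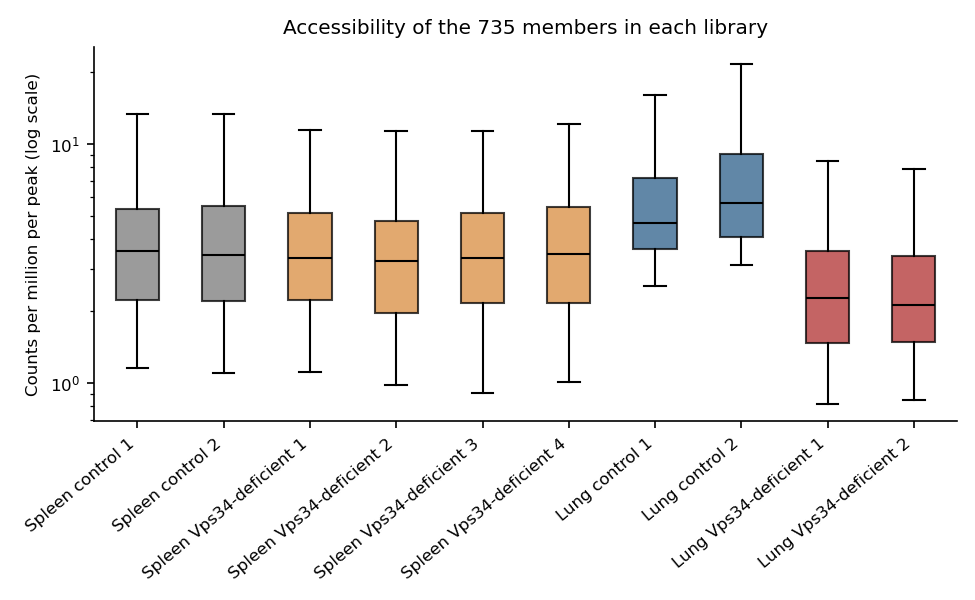
Accessibility of the 735 peaks in each of the 10 libraries, as CPM per peak on a log axis. Boxes give the quartiles, lines the median and whiskers the 5th and 95th percentiles, and the medians are 4.68 and 5.64 CPM in lung controls and 2.27 and 2.12 CPM in deficient lung, with the 6 spleen libraries between 3.24 and 3.57 CPM.

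In the quasi-likelihood fit of edgeR across 97109 peaks, with a call at an adjusted p below 0.05 and a log2 fold change beyond 0.5, 410 of the 735 peaks were called lower in deficient lung, where 3.74% of all tested peaks were. The rule used this contrast and nothing is read from the count. All 735 passed the filter on low counts, and their median log2 fold change was -1.23 (median standard error 0.37), against 0.02 over all tested peaks. The count moved with single lung libraries, as did the share called over all tested peaks. It was 89 without lung control 2 (where 1.08% of all peaks were called), 143 without deficient lung 1 (where 1.41% were) and 150 without deficient lung 2 (where 1.9% were). It was 412 without lung control 1 (where 4.06% of all were) and 146 with the lung libraries fitted alone (where 1.85% were). In spleen 0 of the 735 were called in either direction, where 1.46% of all tested peaks were. An unadjusted p below 0.05 was found at 1 peak, against 14.3% of all tested peaks, and DESeq2 called 0 as well. The spleen band was part of the rule too. Lying in the band does not show an absence of change at a single peak, since the spleen log2 fold change had a median standard error of 0.29. Its 95% interval lay above -1 at 692 peaks but above -0.5 at only 140.

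In the main edgeR fit, a difference between the tissues was not called at single peaks. The interaction term, the lung genotype effect minus the spleen effect, had a median of -1.19 (median standard error 0.48) over the 735 peaks and was negative at all of them, as the rule makes likely. With edgeR 0 of the 735 were called and 0% of all tested peaks, with a smallest adjusted p of 0.160. At an unadjusted p below 0.05 there were 584 of the 735, against 7.27% of all tested peaks. DESeq2 called 13 of the 735 and 0.0227% of all peaks as lower, and without lung control 1 edgeR called 3, where it called 0.0216% of all. The peaks are therefore named here by their rule, and closing in lung alone is not shown by this fit.

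The levels fell into several patterns against spleen. In 426 of the 735 peaks (57.96%) both lung controls lay above all 6 spleen libraries, where this held for 15.8% of all autosomal peaks and 18.8% of the 50328 with a lung control mean of at least 3 CPM. In 327 (44.5%) both deficient lung libraries lay below all 6 spleen libraries, where 17.3% of all autosomal peaks did, and 21.6% of those past the floor. Both held at 95 peaks (12.9%, against 0.709% of those past the floor) and neither at 77 (10.5%, against 60.2%). The lung levels were part of the rule, so these shares describe the selection.

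In the fit, the control lung level was above the control spleen level by a median log2 fold change of 0.71, with 265 of the 735 (36.1%) called higher in lung, where 11.8% of all tested peaks were, and 1 called lower, where 3.53% of all were. The count of higher calls was 75 without spleen control 1 (where 3.21% of all were called), 114 without spleen control 2 (where 6.86% were) and 111 without lung control 2 (where 10.2% were). In deficient Tregs the median was -0.47, with 165 (22.4%) called lower in lung, where 4.72% of all were, and 6 higher, where 12.5% of all were. The count of lower calls was 79 without deficient lung 1 (where 2.7% of all were called) and 69 without deficient lung 2 (where 2.18% were). Averaged over the genotypes the median was 0.13, with 139 peaks (18.9%) called higher in lung, where 18.2% of all were, and 49 (6.67%) lower, where 7.02% of all were. Without lung control 2 these were 83 (where 16.7% of all were called higher) and 86 (where 9.16% were called lower), and the median was -0.01. The rule asked for a high lung control and a low deficient lung level, and used spleen only as the ratio of its 2 group means. The lung side of these contrasts was thus selected, so the tissue differences describe the selection and are not a result about the peaks.

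**Figure D2:**
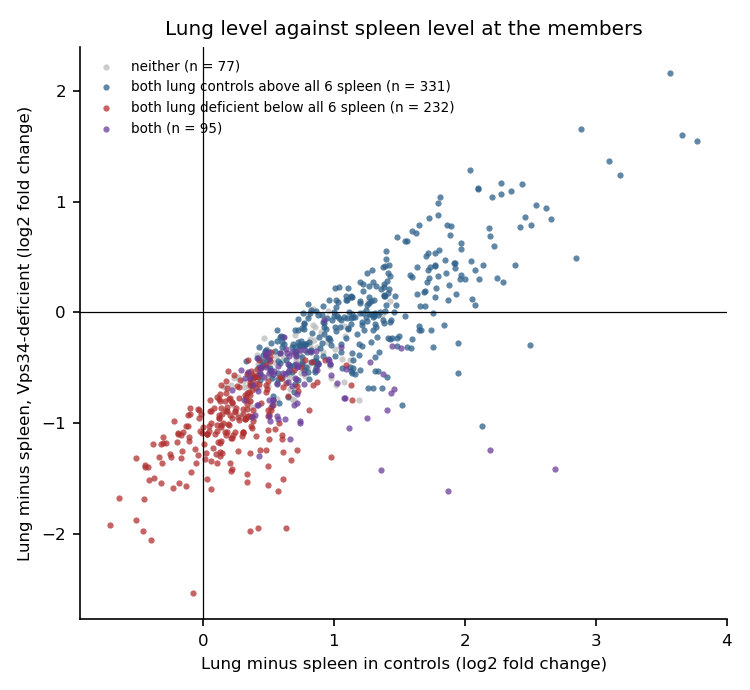
Log2 fold change of lung over spleen in controls (x axis) and in Vps34-deficient Tregs (y axis) at each of the 735 peaks, coloured by whether the lung libraries lay outside the range of all 6 spleen libraries. Most points lie right of 0 on the x axis (684 of 735) and below 0 on the y axis (594 of 735), and 95 peaks left the spleen range on both sides.

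The 8 peaks with the smallest lung p-value were mostly strong and distal. The peak at chr12:74894777-74895534 had 22.1 and 19.7 CPM in spleen controls, 22.7, 17.6, 15.9 and 16.5 CPM in deficient spleen, 26.8 and 29.4 CPM in lung controls and 9.91 and 10.4 CPM in deficient lung, a lung log2 fold change of -1.49. It lies between genes, 282.2 kb from Kcnh5, which encodes a potassium channel. At chr7:66179808-66180688, 70.7 kb from Chsy1, a chondroitin sulfate synthase gene, the levels were 32.1 and 29.5, 25.4, 26.6, 27.2 and 22.97, 37.2 and 45.6 and 18.03 and 20.5 CPM in the same order of groups, and lung control 2 was the highest library. In both peaks the deficient lung libraries lay below all spleen libraries and the lung controls above them. An intron of Mettl24 (chr10:40712882-40713602) had 17.4 and 22.01 CPM in lung controls and 5.85 and 6.56 CPM in deficient lung, with 13.1 and 12.3 and 10.02, 11.7, 9.03 and 12.1 CPM in control and deficient spleen (lung log2 fold change -1.70). The peak chr4:130045565-130046080, 2.02 kb upstream of the collagen gene Col16a1, had 25.9 and 35.3 against 12.2 and 11.6 CPM in lung and 19.6 and 21.6 against 15.8, 19.4, 17.1 and 18.4 CPM in spleen. An intron of Emb, a cell surface glycoprotein gene, held chr13:117260585-117261288, for which the nearest start is that of Gm17509. It had 28.9 and 35.4 against 12.8 and 12.9 CPM in lung, and 22.1 and 17.6 against 22.8, 20.0004, 17.9 and 22.97 CPM in spleen, where the genotypes overlapped.

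The remaining 3 showed the same order. In an intron of Arhgap15, which encodes a regulator of the GTPase Rac, the peak chr2:44344843-44345758 (nearest start Gtdc1) had 25.7 and 27.4 against 12.7 and 9.53 CPM in lung and 21.6 and 21.1 against 21.9, 21.04, 21.4 and 23.97 CPM in spleen. In an intron of St3gal1, a sialyltransferase gene, chr15:67129901-67130430 had 11.9 and 14.8 against 3.90 and 2.75 CPM in lung. Its control spleen levels were 5.44 and 5.99 CPM and its deficient spleen levels 3.89, 4.40, 5.46 and 4.59 CPM, so each lung control lay well above every spleen library and the deficient lung libraries at or below the spleen levels. The peak chr4:95188004-95188564, 136.1 kb upstream of Jun, the AP-1 subunit, had 24.7 and 29.4 against 12.02 and 11.4 CPM in lung and 22.6 and 19.97 against 22.1, 18.5, 18.6 and 20.4 CPM in spleen. The lung log2 fold changes were -1.27, -2.02 and -1.23. These 8 peaks were called in each of the 17 alternative fits of the lung effect.

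**Figure D3:**
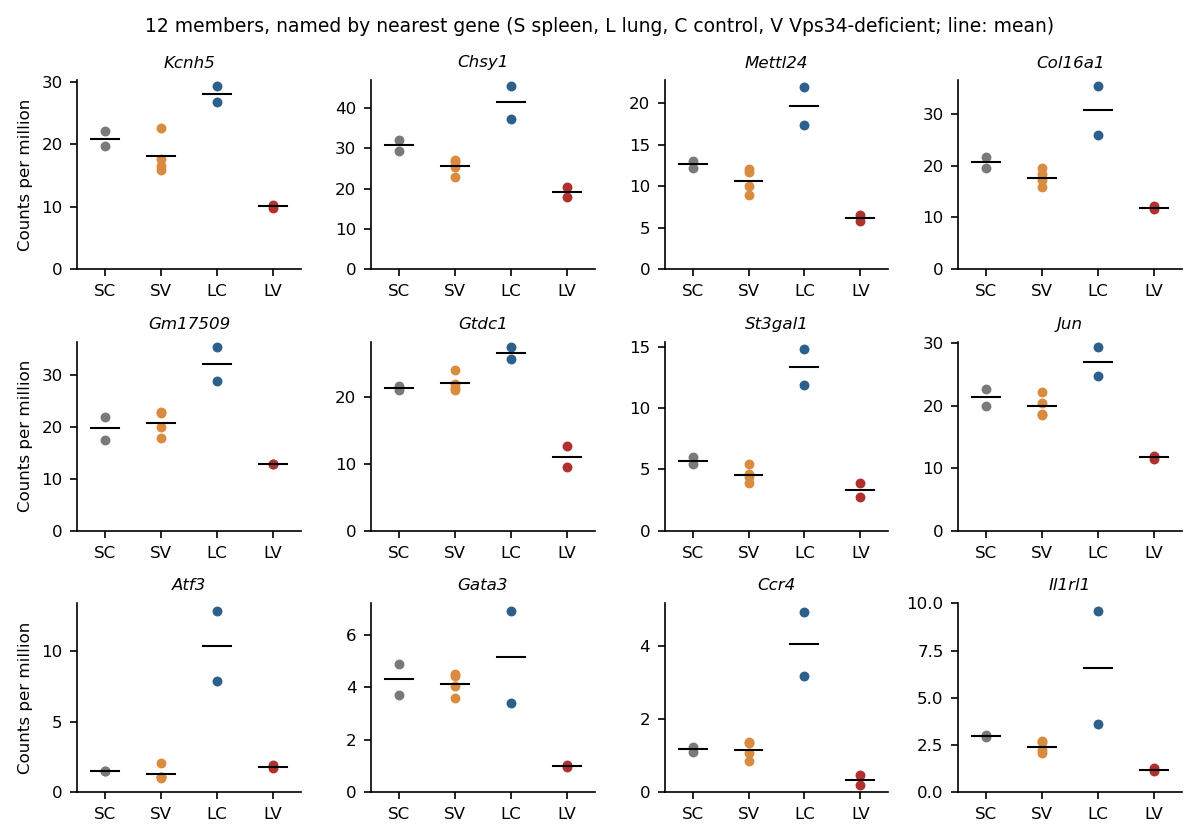
CPM of 12 of the 735 peaks in every library, each named by its nearest gene, with points for libraries and a line at the group mean (S spleen, L lung, C control, V Vps34-deficient). The first 8 are those with the smallest lung p-value, and the last 4 lie nearest to Atf3, Gata3, Ccr4 and Il1rl1, and in each panel both deficient lung libraries lie below both lung controls.

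Of the 735 peaks, 83 lay nearest to one of the genes of 10 lists of Treg biology, which were chosen with earlier results of these data known. For effector and tissue Treg transcription factors, 17 of 866 peaks were members of the set (1.963%, beside 0.778% of all autosomal peaks), at 12 genes. These were Gata3 with 3 peaks, Id2, Maf and Zeb2 with 2 each, and Atf3, Egr2, Hif1a, Ikzf2, Ikzf3, Jun, Rora and Vdr with 1 each. Of the 866 peaks, 67 met the lung conditions, as did 3061 of all 94486 autosomal peaks. Among them 30 had a spleen ratio of 0.5 to 0.8 and 19 one below 0.5, beside 1326 and 930 of all. The higher share in this list was thus not particular to the set. Atf3, an AP-1 family member induced by stress, had the largest lung fold change of the 3 named. Its intronic peak chr1:191190018-191190221 had 7.87 and 12.8 CPM in lung controls and 1.71 and 1.91 CPM in deficient lung, with 1.52 and 1.52 CPM in control and 1.113, 2.08, 1.08 and 1.005 CPM in deficient spleen (lung log2 fold change -2.55). The deficient lung values lay above 5 of the 6 spleen libraries and below the other one, a deficient library that stood apart from the rest of its group. The peak chr2:9294440-9294930, 583.9 kb from Gata3, a factor of type 2 and tissue Tregs, stood differently against spleen. It had 3.40 and 6.91 CPM in lung controls, which spanned the spleen values of 4.90 and 3.72 and 4.03, 4.53, 4.42 and 3.59 CPM, and 0.975 and 1.06 CPM in deficient lung, below all of them.

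Resting Treg and quiescence factors held 7 members among 1017 peaks (0.688%), among them peaks at Ets1, Ets2, Klf6 (2), Runx1 and Runx2. Peaks 19.6 kb upstream of Ets2 and 71.95 kb upstream of Klf6 had 3.61 and 9.74 against 1.79 and 1.69 CPM and 2.98 and 8.04 against 2.92 and 2.54 CPM in lung. At Klf6, a zinc finger factor, lung control 1 was nearly as low as the deficient libraries, and without lung control 2 the lung log2 fold change was -0.10 where it was -1.07 with all libraries. In spleen these peaks had 2.94 and 2.76 against 3.06, 1.71, 3.34 and 2.30 CPM and 7.58 and 7.30 against 6.68, 5.63, 6.05 and 6.60 CPM.

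Suppressive effectors and repair factors held 6 members among 321 peaks (1.87%), at Areg, Cd83, Ctla4, Furin (2) and Il10. The Furin peak chr7:80416930-80417505, 11.8 kb upstream of this proprotein convertase gene, had 16.8 and 29.1 against 9.26 and 9.74 CPM in lung and 9.71 and 10.9 against 9.46, 7.71, 9.75 and 10.8 CPM in spleen. In an intron of Ctla4, the inhibitory receptor that removes B7 ligands, chr1:60911616-60911928 had 17.01 and 27.9 against 13.2 and 8.26 CPM in lung and 20.7 and 21.6 against 17.2, 15.96, 19.6 and 16.3 CPM in spleen, where all 4 deficient libraries lay below both controls. A site 20.1 kb upstream of Il10, the gene of an anti-inflammatory cytokine (chr1:130999635-130999945), had 6.59 and 14.3 against 5.36 and 2.75 CPM in lung and 6.86 and 7.30 against 8.07, 5.87, 4.42 and 7.03 CPM in spleen. Both deficient lung libraries lay below all spleen libraries at the Ctla4 site, and inside or below the spleen range at the other 2 sites.

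Co-stimulatory and co-inhibitory receptors held 3 members among 356 peaks (0.843%). The intronic peak of Cd200r1, an inhibitory receptor, had 6.59 and 8.54 against 3.57 and 2.96 CPM in lung and 4.19 and 4.68 against 4.73, 4.04, 3.97 and 4.74 CPM in spleen. A site 40.8 kb upstream of Cd44, an adhesion receptor raised on activated cells, had 5.95 and 13.5 against 5.20 and 3.60 CPM in lung, and 5.53 and 4.75 against 5.98, 4.04, 5.24 and 3.45 CPM in spleen. The third has its nearest start at Tigit, 30.1 kb away, but lies in Zbtb20, and with 2.13 and 6.07 against 1.62 and 2.12 CPM its first lung control barely exceeded the deficient libraries.

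Chemokine receptors, integrins and adhesion genes held 5 members among 391 peaks (1.28%), at Ccr1, Ccr4, Gpr55 and Itgav (2). Itgav encodes the integrin alpha v, a partner in the activation of latent TGF-beta. Its sites 28.8 kb and 1.29 kb upstream had 39.8 and 47.6 against 24.04 and 18.8 CPM and 21.2 and 21.6 against 7.80 and 9.95 CPM in lung, beside 35.7 and 32.6 against 37.7, 30.3, 28.9 and 33.7 CPM and 17.4 and 16.5 against 16.1, 17.2, 13.5 and 18.4 CPM in spleen. At both sites the lung controls lay above all spleen libraries and the deficient lung libraries below them. The peak nearest to Ccr4, a chemokine receptor of skin and lung homing (chr9:114458456-114458800, in an intron of Glb1), was weak, with 3.19 and 4.94 CPM in lung controls and 0.487 and 0.212 CPM in deficient lung. Its spleen levels were 1.248 and 1.10 CPM and 1.39, 1.35, 1.08 and 0.861 CPM, all between the lung groups, and its lung log2 fold change of -3.49 ± 0.57 (SE) was the largest fall among the 39 peaks named by rank, list, promoter or level. It rested on 6 and 2 counts in the deficient lung libraries.

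Cytokine receptors and JAK-STAT genes held the largest share of the 10 lists, 18 members among 605 peaks (2.98%), of which 7 were nearest to Il1rl1 and 4 to Smad3. Il18rap had 2, and Il2ra, Il2rb, Smad7, Socs1 and Stat4 had 1 each. Il2rb encodes the beta chain of the interleukin 2 receptor. Its start site peak chr15:78493513-78493988 had 27.0045 and 37.3 against 18.2 and 13.5 CPM in lung and 23.6 and 29.8 against 22.8, 23.7, 26.4 and 27.6 CPM in spleen. It is one of the 3 promoter peaks with the smallest lung p-value, with Il1rl1 and a peak 953 bp upstream of Lbx1, a homeobox gene of muscle and neural development, where lung had 10.6 and 14.3 against 5.52 and 5.08 CPM and spleen 6.77 and 5.92 against 5.70, 7.46, 5.96 and 8.40 CPM.

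Il1rl1 was nearest to more of the peaks than any other gene. Of 16 peaks assigned to it, 7 met the rule and 4 more closed in lung with a spleen ratio below 0.8, so 11 of 16 met the lung conditions. The 7 spanned 51.2 kb of chromosome 1. The promoter peak chr1:40429005-40429625, 255 bp upstream of a start, had 2.94 and 3.03 CPM in spleen controls, 2.64, 2.08, 2.26 and 2.73 CPM in deficient spleen, 3.61 and 9.60 CPM in lung controls and 1.14 and 1.27 CPM in deficient lung. Every deficient lung value was below every spleen value, and lung control 1 stood only a little above the spleen controls. The strongest of the 7, chr1:40399558-40400092, lies 29.7 kb upstream and had 14.7 and 22.6 against 6.98 and 9.74 CPM in lung and 9.002 and 9.09 against 6.68, 8.07, 8.03 and 8.18 CPM in spleen. The peak chr1:40425451-40425720, 3.98 kb upstream, was barely open in spleen, with 0.624 and 0.344 CPM where Vps34 was present and 0.695, 0.367, 0.542 and 0.574 CPM where it was not. Its lung levels were 3.30 and 4.87 CPM with Vps34 and 1.62 and 1.06 CPM without it, so the deficient lung level was between the other lung and spleen levels. Summed over the 7, lung controls had 36.9 and 58.1 CPM, deficient lung 14.8 and 20.3 CPM, spleen controls 22.9 and 23.2 CPM and deficient spleen 19.7 to 22.05 CPM.

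Of the 9 other peaks assigned to Il1rl1, 4 met the lung conditions and were left out by the rule for a spleen ratio below 0.8. At -36.1 kb from the first Il1rl1 start, a peak outside the set fell from 4.32 to 1.19 CPM in spleen and from 17.8 to 2.89 CPM in lung (group means). At -31.9 kb another fell from 6.29 to 2.44 CPM in spleen and from 16.2 to 3.13 CPM in lung. The spleen fall of both is what kept them out of the set. At -46.4 kb a peak that did not reach the lung fold had group means of 10.5 CPM in control and 8.87 CPM in deficient spleen, and 17.1 and 10.98 CPM in lung.

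**Figure D4:**
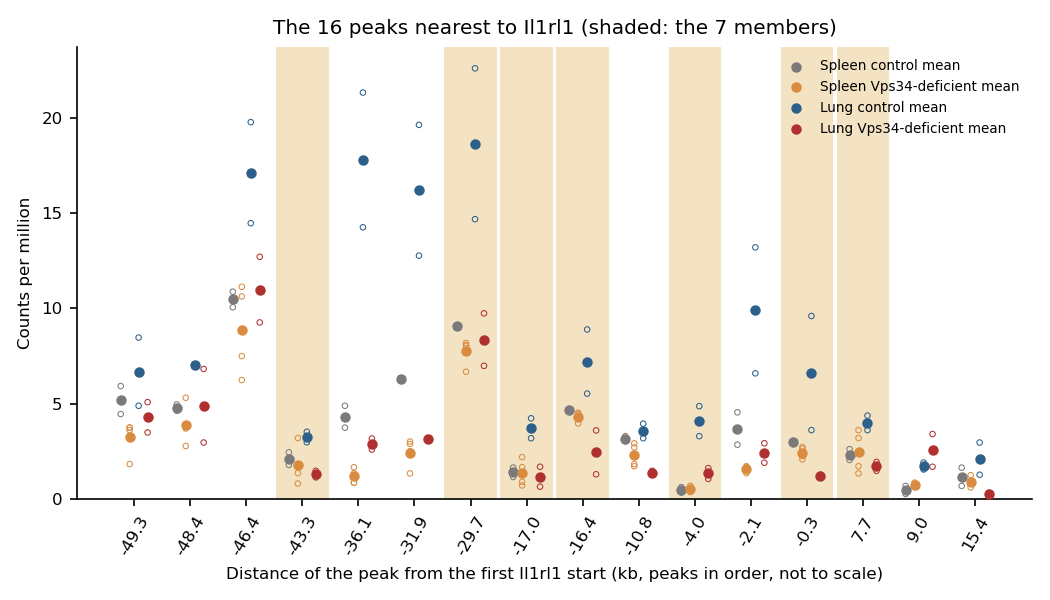
The 16 peaks nearest to Il1rl1 in order of their distance in kb from its first start, with CPM on the y axis. Filled points are group means, open points libraries, and shading marks the 7 peaks of the set, where the lung control mean is the highest of the 4 groups in each column.

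Smad3, a transducer of TGF-beta signals, was nearest to 4 of the peaks, out of 35 assigned to it. Another 5 of the 35 met the lung conditions but not the spleen band. The intronic peak chr9:63732725-63733074 had 9.57 and 15.5 against 3.41 and 3.60 CPM in lung and 4.37 and 5.51 against 4.03, 4.46, 5.14 and 4.23 CPM in spleen. The strongest, chr9:63721569-63722070, had 26.2 and 34.1 against 17.2 and 11.01 CPM in lung and 15.6 and 15.4 against 13.1, 13.9, 14.7 and 19.5 CPM in spleen, with 1 deficient lung library inside the spleen range and 1 below it. Lung log2 fold changes of the 4 ran from -1.07 to -1.88, and the spleen values from -0.13 to 0.05. Summed over the 4, lung controls had 51.7 and 70.3 CPM and deficient lung 28.2 and 23.4 CPM, and the 6 spleen libraries had 28.03 to 37.3 CPM.

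Gtdc1, which encodes a glycosyltransferase-like protein, also had 4 (of 28 assigned peaks), spread over 577 kb that include Arhgap15. Their sum was 41.3 and 49.2 CPM in lung controls and 19.98 and 18.4 CPM in deficient lung, and 33.4 to 39.1 CPM in spleen, so the deficient lung libraries lay below all others. Pecam1 had 3 of 14, with 19.1 and 26.8 against 10.2 and 7.09 CPM in lung and 14.4 to 19.8 CPM in spleen. Pecam1 encodes the adhesion molecule CD31, which marks endothelium and is also found on leukocytes, and its promoter peaks held 24.2 and 29.6 CPM in lung controls and 24.04 and 25.4 CPM in deficient lung. The sum over the endothelial list is given above, and its part in these 3 peaks was not tested. Gata3 had 3 of 87 peaks, which lie up to 722.8 kb from its start, with 10.2 and 19.1 against 5.69 and 5.08 CPM in lung. In spleen the 3 had 9.64 to 12.7 CPM, so that lung control 1 lay within the spleen range. Adgrl2, an adhesion receptor gene, had 3 of 87, with 41.7 and 51.01 against 21.1 and 18.2 CPM in lung and 16.4 to 23.9 CPM in spleen. Other genes with 3 were Akap11, Fmnl2, Osbpl3 and Vrk1. Outside the set, Gtdc1 had 3 more peaks that met the lung conditions but not the spleen band, Gata3 6, Adgrl2 4 and Pecam1 0.

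TCR signalling genes held 8 members among 793 peaks (1.01%), at Dgkz and Vav3 (2 each), Itpr1, Nfatc1, Ppp3ca and Ptpn22. The intron of Vav3, which encodes a guanine nucleotide exchange factor, held chr3:109454453-109455111, with 9.99 and 11.01 against 3.90 and 4.87 CPM in lung. In control spleen it had 15.1 and 13.8 CPM, and deficient spleen libraries held 12.9, 11.99, 12.5 and 13.4 CPM, so the lung controls already lay below spleen. Introns of Ppp3ca, the catalytic subunit of calcineurin, and of Itpr1, a calcium channel of the endoplasmic reticulum, had 8.51 and 9.60 against 2.92 and 5.29 CPM and 7.87 and 12.6 against 5.85 and 4.23 CPM in lung. Their spleen levels were 6.77 and 5.92 against 6.26, 5.75, 5.96 and 5.02 CPM and 6.02 and 5.51 against 6.26, 5.32, 5.01 and 3.59 CPM.

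NF-kB and TNF receptor signalling genes held 9 members among 340 peaks (2.65%), at Ikbkb, Nfkb1 (2), Rel, Tnfaip8 (2), Traf1 (2) and Traf5. The Traf5 intron, in the gene of a TNF receptor adaptor, had 8.93 and 9.31 against 4.22 and 3.81 CPM in lung. Its spleen levels were 12.6 and 10.2 against 12.2, 10.4, 9.93 and 8.76 CPM, so that the lung controls were at the low end of spleen. Nfkb1 encodes the p105 precursor of p50, and a site 28.8 kb from it had 10.4 and 13.7 against 6.33 and 5.08 CPM in lung and 11.4 and 11.8 against 11.1, 8.20, 9.93 and 8.33 CPM in spleen. An intron of Tnfaip8 had 4.47 and 7.62 against 1.95 and 2.12 CPM in lung and 3.74 and 4.82 against 3.48, 3.79, 5.96 and 4.88 CPM in spleen.

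Genes of Vps34 complexes, autophagy and PI3K-mTOR signalling held 5 members among 458 peaks (1.09%), at Atg5, Inpp4b, Pik3cd, Pik3r1 and Rps6ka5. Inpp4b removes a phosphate from PI(3,4)P2. Its intronic peak chr8:81611224-81612075 had 11.9 and 11.99 against 5.85 and 3.60 CPM in lung, with 5.53 and 6.20 against 5.29, 5.26, 6.14 and 5.17 CPM in spleen. Peaks nearest to the kinase gene Rps6ka5 and to Pik3r1, the regulatory subunit of class I PI3K, were low, with 4.25 and 2.68 against 0.487 and 0.635 CPM and 2.98 and 3.10 against 1.30 and 0.635 CPM in lung. In spleen they had 0.357 and 0.964 against 0.765, 0.734, 0.632 and 0.718 CPM and 1.87 and 0.964 against 1.67, 2.20, 1.35 and 0.574 CPM.

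Survival and apoptosis genes held 5 among 239 peaks (2.09%), among them peaks at Bid, Casp8, Cflar and Tnfsf10. Peaks nearest to Cflar, an inhibitor of caspase 8, and Tnfsf10, the ligand TRAIL, had 2.76 and 5.64 against 2.27 and 1.06 CPM and 5.53 and 4.66 against 2.27 and 2.12 CPM in lung. Their spleen levels were 3.92 and 4.82 against 3.20, 3.91, 3.61 and 3.52 CPM and 1.961 and 3.65 against 1.67, 1.957, 2.80 and 3.01 CPM. These were among the weakest of the named peaks.

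The 3 peaks with the highest lung control mean were those at Chsy1 and 28.8 kb upstream of Itgav, given above, and an intronic peak of Lnx2, which encodes a ubiquitin ligase (chr5:147055783-147056287). It had 27.9 and 42.1 against 12.8 and 16.7 CPM in lung and 21.9 and 22.9 against 18.8, 16.5, 17.1 and 21.2 CPM in spleen.

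At the limits of the rule the values ran on without a gap. By lung fold, the last peaks inside had 14.1 against 7.03 CPM (Synpo2) and 11.1 against 5.55 CPM (St6gal1) in lung, and the first outside 8.34 against 4.17 CPM (Rab8b) and 8.42 against 4.21 CPM (Zfp791). By lung control mean, Gm12216 and Herpud2 were inside at 3.004 CPM each, and Kcne1 and Msi2 outside at 2.99 and 2.97 CPM. The spleen ratio was 0.8006 at Aldh8a1 and 0.8007 at a Pecam1 peak inside, and 0.7999 and 0.7997 at Selenok and Rasl11a outside. At the upper end it was 1.248 at Smndc1 and 1.244 at Helz inside, and 1.251 and 1.252 at Abhd17c and Kdm2b outside. With TMM scaling of the libraries the rule took 823 peaks, 734 of the 735 among them.

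Position in the genome was not used by the rule. Of the 735 peaks, 72 lay within 1 kb of a protein-coding transcription start (9.80%, 95% Wilson interval 7.85% to 12.2%), 23 in other exons (3.13%), 355 in introns (48.3%) and 285 between genes (38.8%). Promoters made up 17.1% of all autosomal peaks and 26.96% of those past the lung floor. They made up 5.35% (4.27% to 6.70%) of the lung-closing peaks with a spleen ratio from 0.5 to 0.8 and 3.44% (2.45% to 4.82%) of those below 0.5. The promoter share was thus below that of all peaks and above that of the lung-closing peaks whose spleen level also fell, without overlap of the intervals. It was 5.71% (4.05% to 7.99%) in the 543 peaks of the mirrored rule, which opened in deficient lung with a flat spleen ratio, where the intervals overlapped. The median distance to a start was 17.8 kb, against 23.2 kb and 24.5 kb in the lung-closing peaks with spleen ratios of 0.5 to 0.8 and below 0.5, 14.7 kb in the 70 with a ratio above the upper limit and 17.6 kb over all autosomal peaks. The median width was 383 bp, against 328 bp over all autosomal peaks, and the median GC content 48% against 48.7%. Peaks past the lung floor were wider (463 bp), with a GC content of 50.7% and a shorter distance to a start (11.1 kb). The 735 peaks were spread over 653 nearest genes and all 19 autosomes, and 55 had another within 10 kb.

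Sequence letters were not used by the rule either. Letters for 22 factor families were sought on both strands in the central 300 bp of each peak. AP-1 letters (TGANTCA) were in 216 of the 735 peaks, 29.4% (26.2% to 32.8%), against 12.99% of all autosomal peaks. The lung-closing peaks with spleen ratios of 0.5 to 0.8 and below 0.5 had 30.1% (27.7% to 32.6%) and 33.01% (30.1% to 36.1%), so both intervals overlapped with that of the 735. The mirrored lung-opening peaks had 10.9% (8.52% to 13.8%). Runx letters (TGTGGT) were in 280 peaks, 38.1% (34.7% to 41.7%), against 26.6% of all, 43.98% (40.8% to 47.2%) where the spleen ratio was below 0.5 and 23.4% (20.02% to 27.1%) in the lung-opening peaks. Both AP-1 and Runx letters stood in 87 peaks (11.8%, 3.81% of all autosomal peaks). AP-1 letters are also part of the BATF and IRF composite motif that was searched, so those counts overlap. Gata letters (AGATAA) were in 18.9% (16.2% to 21.9%), against 14.97% of all. Lung-closing peaks with spleen ratios of 0.5 to 0.8 and below 0.5 had 20.3% (18.2% to 22.5%) and 20.6% (18.2% to 23.4%). The lung-opening peaks had 19.5% (16.4% to 23.1%), so this share was not particular to the 735.

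NF-kB letters set the groups apart in another order. GGANTTTCC was in 32 of the 735 peaks, 4.35% (3.10% to 6.08%), against 1.649% of all autosomal peaks. It was in 1.81% (1.22% to 2.68%) of the lung-closing peaks with a spleen ratio from 0.5 to 0.8 and in 0.538% (0.230% to 1.252%) of those below 0.5, so the share was lower where the spleen level fell too. In the lung-opening peaks it was 2.03% (1.13% to 3.59%). The intervals of the 735 and of both other large lung-closing groups did not overlap, while that of the lung-opening peaks overlapped with that of the 735. In the 70 lung-closing peaks with a spleen ratio above the upper limit the share was 5.71% (2.24% to 13.8%), from 4 peaks. These differences were not tested. Without promoters, NF-kB letters stayed at 4.37% of 663 peaks of the set, against 1.72% of distal autosomal peaks. A single-copy site for the orphan receptors NR4A and ROR (AAAGGTCA) was in 4.22% (2.99% to 5.92%), against 2.21% of all. Letters for KLF and SP factors (GGGCGGG) and the CTCF core (AGGGGGC) were less frequent than over all peaks, at 8.16% (6.39% to 10.4%) against 11.6% and 3.95% (2.76% to 5.61%) against 8.24%. Without promoters the KLF and SP letters were in 6.18% (4.59% to 8.28%), against 5.65% of distal autosomal peaks, so that difference was not seen there, while the CTCF core was in 3.77% (2.57% to 5.51%), against 6.95%. Those for NFY (CCAAT, 30.5% against 29.99%), TCF1 and LEF1 (CTTTGA, 20.8% against 21.6%) and E-boxes (CAGCTG, 18.2% against 17.9%) were about as frequent as over all peaks.

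**Figure D5:**
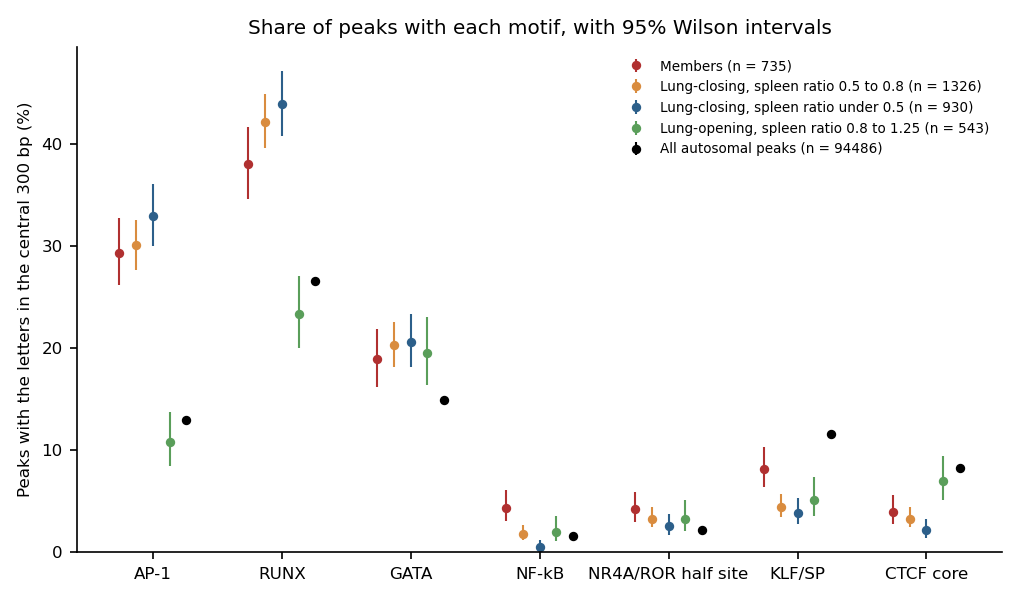
Share of peaks with the letters of 7 factor families in their central 300 bp, in percent, with 95% Wilson intervals, for the 735 peaks, 3 other groups and all autosomal peaks. AP-1 letters are in 29.4% of the 735 peaks and 12.99% of all, and NF-kB letters in 4.35% of the 735 and 0.538% of the lung-closing peaks with a spleen ratio below 0.5.

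The 32 peaks with NF-kB letters were singled out after the shares were seen. They lie nearest to 32 genes, among them Stat4, Il18rap, Areg, Klf6, Nfe2l2, Slc11a1, Rhoh, Cx3cl1 and Gtdc1, and 6 of them also hold AP-1 letters. Their median level was 3.37 CPM in spleen controls, 5.72 CPM in lung controls and 2.48 CPM in deficient lung, against 3.47, 5.13 and 2.11 CPM in the 703 without. Median lung log2 fold changes were -1.25 and -1.23. The peak nearest to Rap2a, printed above, had 4.04 and 3.81 against 0.975 and 0.212 CPM in lung and 1.69 and 1.52 against 2.09, 1.59, 1.67 and 1.72 CPM in spleen. That in an intron of Stat4, which transmits interleukin 12 signals, had 5.74 and 12.1 against 3.33 and 3.18 CPM in lung and 6.60 and 7.09 against 5.98, 6.12, 4.69 and 5.17 CPM in spleen. The Areg peak, 12.8 kb from the gene of the repair factor amphiregulin, had 8.08 and 7.06 against 4.55 and 1.91 CPM in lung and 4.46 and 3.99 against 6.12, 3.73, 3.25 and 3.59 CPM in spleen.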

How the data were processed

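Tregs were sorted from spleen and lung and profiled in 10 ATAC-seq libraries of 4 groups. Per the study's methods the authors removed duplicates, shifted reads for Tn5, kept nucleosome-free fragments, called peaks with MACS2 in each sample and merged them. The submitters' processing notes name cutadapt 1.9, Picard 1.65, SAMtools, MACS2 2.1.0.20150603 and bedtools. The deposited values are whole-number counts per peak and library, not normalised. Labels and table give 2 control and 4 deficient spleen libraries, the methods the reverse, and the labels were followed. The methods name mm9 and the notes mm10. On GRCm38 peaks covered 51.2% of 21951 protein-coding starts, and 2.22% to 2.82% with positions shifted, so GRCm38 with GENCODE M21 was used, with positions counted from 1.

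CPM are counts per 1000000 counts of the column total. Models were fitted with edgeR 4.0.16 (R 4.3.3) to all 97109 peaks left by filterByExpr, with TMM factors, 4 groups in 1 quasi-likelihood model and Benjamini-Hochberg adjustment over all peaks, and the procedure was tested on simulated data. DESeq2 1.42.0 was an alternative, beside other scaling, no filter, halved counts, a replicate block, 1 tissue alone, other limits of the rule and each library left out. Peaks were assigned to the nearest protein-coding transcription start. Motif letters were matched exactly, and intervals of shares are 95% Wilson intervals that cover counting error only.

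The members and lists were chosen with earlier results of these data known. Named peaks were the 8 with the smallest lung p-value, up to 3 per gene list, 3 promoter peaks, the 3 highest in lung controls, peaks of up to 6 genes nearest to 3 or more members, and those at the limits of the rule, of which 2 are not reported here. Accessibility of the targeted gene was not used to check the labels.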

Additional observations from a re-analysis of the deposited data

Results flagged for a closer look

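In the 4 Vps34-deficient spleen libraries 1 library stood apart from the other 3 at 2 of the 39 named peaks, by a gap above Dixon's 95% critical value. At the Atf3 intron the high library had 2.08 CPM, with a gap of 0.8996 of the range, and at the Inpp4b intron the high library had 6.14 CPM, with a gap of 0.878. Chance marks about 5% of groups of this size.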

How the results depend on the processing

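All 39 named peaks had a negative lung log2 fold change in 17 alternative fits, as the rule makes likely, so nothing is read from the sign. Of the 35 called lower, 15 were called in each of these fits. The count of 410 peaks called lower in deficient lung was 248 with the replicate number as a block, 146 with lung libraries alone, and 89 to 412 with 1 library left out. With the block, 2310 of all 97109 tested peaks were called lower, against 3632 without it. Replicate numbers did not pair the libraries (correlations of deviations -0.10 to 0.01 between groups). With the block the count lower in deficient lung than deficient spleen was 63, against 165 without it. Over all tested peaks these counts were 1711 and 4583. Leaving out 1 library gave 0 to 3 interaction calls, DESeq2 gave 13. Higher in lung controls than spleen controls were 75 to 257 peaks, lower in deficient lung 69 to 190, and on average over genotypes 83 to 150 higher and 34 to 86 lower. The spleen count was 0 in every fit. The rule took 2755 peaks at a lung fold of 1.5, 119 at 3, 390 at a floor of 5 CPM, 1626 at 1 CPM, 355 with a spleen ratio between 0.9 and its reciprocal and 1346 with 0.67 to 1.5. It took 713 to 1336 with 1 library left out, sharing 420 of 828 with the set when lung control 2 was dropped. The promoter share was 5.85% within 500 bp and 14.1% within 2000 bp. AP-1 letters were in 23.7% of central 200 bp and 34.6% of whole peaks, against 9.95% and 16.1% of all autosomal peaks, and Runx letters in 31.2% and 46.5%, against 20.1% and 31.8%. The causes of these shifts were not tested. Median counts at the peaks were 20 to 80 per library, which limits the precision of single peaks.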
